A study of Mus musculus with 6 samples.

Results

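Genes that encode scavenger and endocytic receptors of sinusoidal endothelium, or proteins found with them, were followed through 6 Affymetrix 430-2.0 mouse arrays. They were Stab1, Stab2, Mrc1, Lyve1, Fcgr2b, Scarb1, Scarf1, Dab2 and Mmrn1, and they made up 9 of the 18193 genes measured. The members were the 20 probe sets that the platform annotation assigns to 1 of these genes alone. Each gene was represented by the probe set that was brightest on average over the 6 arrays, and its other probe sets are given beside it.

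All samples came from the fore and hind limbs of mice at postnatal day 3, pooled by litter, and no treatment was given. The genotype is labelled wild type, while the tissue protocol speaks of GFP-labelled mice, and which of these holds for the samples was not settled. Skeletal tissue was digested with collagenase, and cells were stained and sorted by flow cytometry. The Tie2-negative population (3 arrays) is titled as lacking CD45, Ter119, integrin alpha V (Itgav) and the angiopoietin receptor Tie2. The Tie2-positive population (3 arrays) carries a title that again excludes CD45 and Ter119 but gives Itgav as low and Tie2 as positive. Ter119 stands in the titles of both populations but not among the antibodies that the protocol lists. Nothing says that samples of 1 population are separate litters, so p-values reflect only how these samples scatter, and that scatter may be technical. The RNA went through 2 rounds of amplification before labelling. The question was how the receptor genes differ between the populations, and how far the 3 Tie2-positive arrays differ from one another.

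Sinusoids are thin-walled, permeable vessels of liver, spleen and bone marrow, and the endothelial cells that line them are specialised for clearing large molecules from blood. They bind modified proteins, hyaluronan, denatured collagen fragments and immune complexes with a set of surface receptors, draw them in through clathrin-coated pits and pass them to lysosomes for breakdown. Several of the receptors are also made by macrophages, and some by lymphatic endothelium, platelets or B cells.

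RefSeq promoter windows (GRCm38.p6) were matched by symbol for 6 of the 9 genes, Stab1, Stab2, Mrc1, Fcgr2b, Dab2 and Mmrn1, with 7 windows in all because Dab2 has more than 1 start. The 250 bases before the start are shown for the 3 genes with the largest rises in the Tie2-positive cells, and for Fcgr2b, whose probe sets disagreed. Capitals mark the ETS-type motif CAGGAA, its variant form CCGGAA and the related PU box, GAGGAA, on either strand. ETS factors are a family that includes regulators of endothelial genes and PU.1, a regulator of myeloid and B-cell genes.
Stab1, chr14:31168642-31168891, minus strand: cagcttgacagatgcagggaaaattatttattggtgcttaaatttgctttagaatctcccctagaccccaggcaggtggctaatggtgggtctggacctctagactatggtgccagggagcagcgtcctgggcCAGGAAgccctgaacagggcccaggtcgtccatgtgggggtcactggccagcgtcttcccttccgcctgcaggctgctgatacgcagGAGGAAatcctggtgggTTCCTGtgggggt
Stab2, chr10:87007943-87008192, minus strand: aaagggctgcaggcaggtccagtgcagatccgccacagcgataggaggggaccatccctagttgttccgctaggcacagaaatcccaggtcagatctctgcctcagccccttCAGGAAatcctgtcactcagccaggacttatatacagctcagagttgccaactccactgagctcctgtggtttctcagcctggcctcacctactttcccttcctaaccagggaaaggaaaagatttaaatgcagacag
Mrc1, chr2:14229164-14229413, plus strand: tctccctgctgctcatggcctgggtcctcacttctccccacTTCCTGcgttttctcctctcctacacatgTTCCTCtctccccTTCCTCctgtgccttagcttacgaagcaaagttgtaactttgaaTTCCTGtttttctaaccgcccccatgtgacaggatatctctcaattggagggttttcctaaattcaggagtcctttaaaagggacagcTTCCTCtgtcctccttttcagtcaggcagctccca
Fcgr2b, chr1:170976072-170976321, minus strand: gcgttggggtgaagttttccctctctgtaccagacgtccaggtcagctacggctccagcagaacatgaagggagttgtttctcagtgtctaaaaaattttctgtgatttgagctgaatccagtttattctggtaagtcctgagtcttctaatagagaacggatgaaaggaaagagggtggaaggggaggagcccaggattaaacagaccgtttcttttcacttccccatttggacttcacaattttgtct

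On either strand, CAGGAA stood in 6 of the 7 windows (Stab1, Stab2, Mrc1, Mmrn1 and both of Dab2) and in 25.7% of all 32851 windows of the same length. GAGGAA, the PU box, stood in 5 of 7 windows (Stab1, Mrc1, Mmrn1 and both of Dab2) against 23.3% of all. CCGGAA stood in 1 window, of Dab2, against 12% of all. The 3 motifs share the letters GGAA but differ in the letters before them, so that no GGAA was counted under more than 1 motif. The Stab1 window held CAGGAA from 117 to 112 bases before the start, and the Stab2 window held it from 138 to 133 bases before the start. These distances count from the start used for the window. On the minus strand, the annotated genes reach to 31168651 (Stab1) and 87008038 (Stab2). The near end of both windows thus lies inside the gene. Mrc1 carried GAGGAA at 3 places, all on the opposite strand. The Fcgr2b window held none of the 3. Among other motifs searched on both strands, the E-box CANNTG was found in 5 windows (66.2% of all), the GC box GGGCGG in 1 (32.7%) and the Sox site AACAAT in 1 (9.42%). The AP-1 site TGANTCA (6.75% of all), the GATA site AGATAA (9.99%) and TATAAA (12.4%) were found in 0 of the 7. These matches describe letters in the window and not factor binding. GC content was 57.2% for Stab1, 53.2% for Stab2, 49.6% for Mrc1 and 45.2% for Fcgr2b, beside a median of 52.4% over all windows.

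The sort and the series gave the following frame. Tek, the gene of Tie2, read 4.79 to 4.90 in the Tie2-negative and 12.06, 10.86 and 9.80 in Tie2-positive replicates 1, 2 and 3, which checks the Tie2 label and is no finding. Itgav read 7.06 to 7.24 and 8.60 to 9.37 in the same populations. Ptprc, the gene of CD45, which both titles exclude, read 9.52, 10.41 and 9.42 in the Tie2-negative arrays and 4.87, 9.95 and 11.23 in Tie2-positive replicates 1, 2 and 3. All arrays but Tie2-positive replicate 1 thus go against the CD45 label in RNA, which does not measure the surface protein of the sort. The results are given with these arrays and without each in turn. The array values are on a log2 scale, so that a difference of 1 is a doubling, and all values given are after quantile normalization. The 3 Tie2-positive arrays were less alike than the Tie2-negative arrays, with correlations across genes from 0.898 to 0.980 against 0.969 to 0.983. No array pair was identical (0 pairs). Neutrophil genes were also read: the median of 8 of them was 6.03, 12.11 and 13.51 in Tie2-positive replicates 1, 2 and 3. The files carry no detection calls, so whether the lower values lay above background was not analysed; the lower quartile of all gene values was 5.11. Mean levels served to choose probe sets and a few genes to name, and levels of different probe sets are not compared as amounts.

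All 9 genes read higher in every Tie2-positive array than in any Tie2-negative array, as did 15.2% of all 18193 genes, and 4 of them passed the test. Stab1, Stab2, Mrc1 and Lyve1 rose, by 2.51 to 4.89 on the log2 scale, and 0 of the 9 fell. Over all genes limma called 7.39% in either direction at an adjusted p under 0.05, with 4.86% higher and 2.53% lower in the Tie2-positive population. The median log2 change was 2.51 over the 9 genes and -0.11 over all genes. The genes were chosen with earlier results of these data known, so the counts describe them and are no evidence that they stand apart. In sorted bulk samples, fewer cells of a type and less RNA per cell cannot be told apart. An exact two-sided permutation test of any single gene cannot go below p = 0.1 with 3 against 3 arrays, and it gave 0.1 for each of the 9.

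Calls depended on single arrays. When any 1 of the Tie2-negative arrays was left out, and also with the replicate number as a block, 0 of the 9 genes passed in limma, while 7 or 8 of them had an unadjusted p under 0.05. Over all 18193 genes limma called 1345 with all arrays and no block. It called 0 without Tie2-negative replicate 1 or 2 and with the block, and 378 without Tie2-negative replicate 3. Without Tie2-positive replicate 2 only Lyve1 passed of the 9, and without Tie2-positive replicate 1 or 3 there were 6, with Scarf1 and Dab2 added to the same 4. The calls over all genes were 2148, 504 and 1085 without Tie2-positive replicates 1, 2 and 3 in turn.

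**Figure D1:**
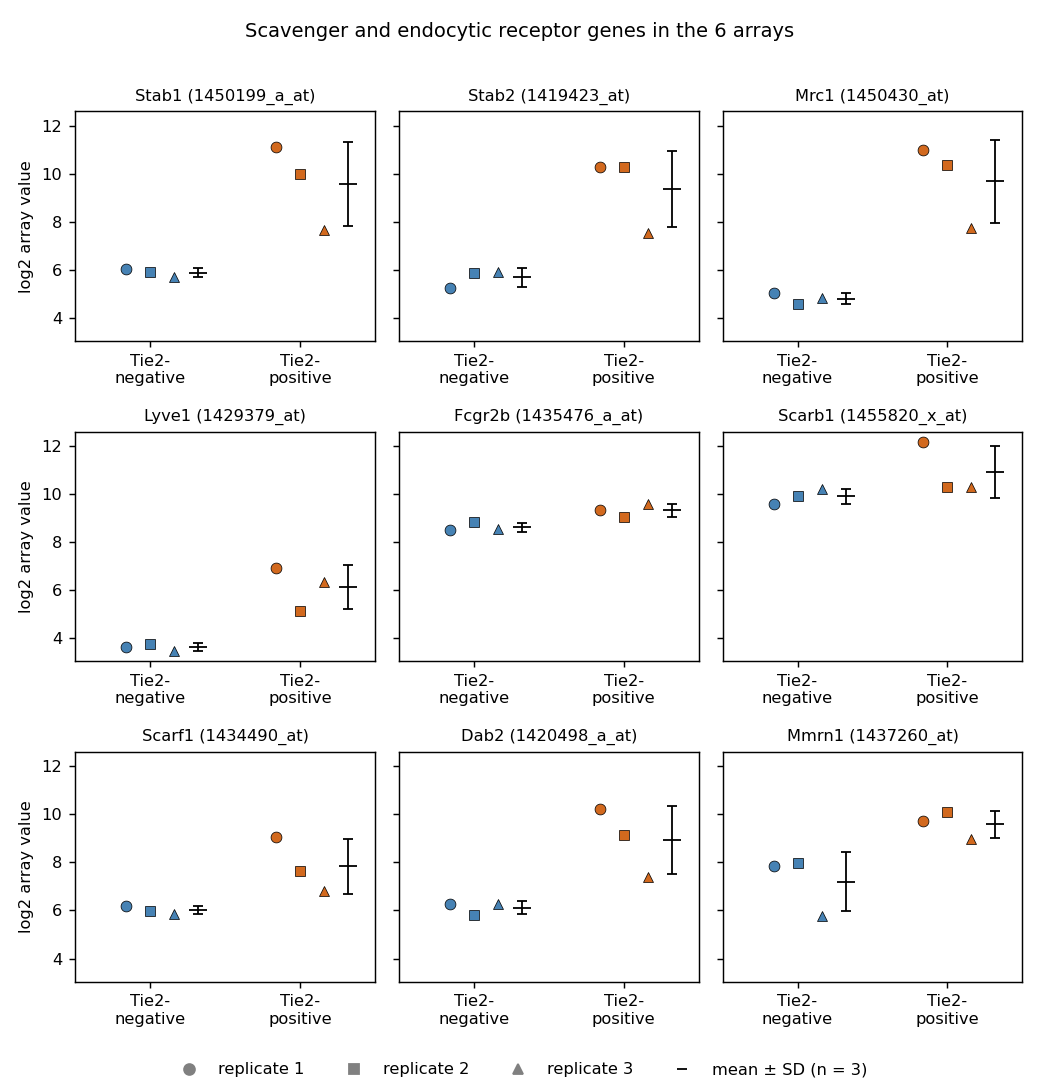
The log2 array value (vertical axis) of the probe set used for each of the 9 genes, in the 3 Tie2-negative arrays (blue) and the 3 Tie2-positive arrays (orange); symbols mark the replicate number, and bars give the mean ± SD of 3 arrays. In every panel the Tie2-positive values lie above the Tie2-negative ones, by a gap of 0.09 for Scarb1 and up to 2.70 for Mrc1.

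The stabilins are large transmembrane receptors with EGF-like and fasciclin domains and a link-type domain. Stab1 (probe set 1450199_a_at), the receptor for modified lipoprotein and the matrix protein SPARC, read 6.05, 5.89 and 5.68 in the Tie2-negative arrays. It read 11.10, 9.98 and 7.66 in Tie2-positive replicates 1, 2 and 3. The lowest Tie2-positive array thus lay 1.60 above the highest Tie2-negative one. The mean was 13.0-fold higher, a rise of 3.70 ± 0.80 (SE, with n = 3 in each population), and limma gave an adjusted p of 0.0427. Stab2 (1419423_at), the main clearance receptor for circulating hyaluronan, read 5.24, 5.88 and 5.93 against 10.28, 10.27 and 7.54. Its replicates 1 and 2 differed by only 0.02, and replicate 3 was far below both. Stab2 rose by 3.68 ± 0.74 (SE; adjusted p = 0.0352), or 12.8-fold, and differed from the rise of Stab1 by less than the standard error.

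Mrc1 (1450430_at), the mannose receptor, takes up glycoproteins with exposed mannose and fragments of denatured collagen. It read 5.03, 4.57 and 4.81 in the Tie2-negative arrays and 11.00, 10.35 and 7.73 in Tie2-positive replicates 1, 2 and 3. The populations were separated by 2.70, the widest gap among the 9 genes. Mrc1 rose by 4.89 ± 0.79 (SE; limma adjusted p = 0.0205), or 29.6-fold. As for the stabilins, replicate 3 was the lowest of the Tie2-positive arrays.

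Lyve1 is a hyaluronan receptor of lymphatic and sinusoidal endothelium and of some macrophages. In the probe set used (1429379_at) it read 3.65, 3.78 and 3.47 in the Tie2-negative arrays, below the lower quartile of all gene values. It read 6.91, 5.14 and 6.35 in Tie2-positive replicates 1, 2 and 3, so that replicate 2, and not 3, was the lowest. Lyve1 rose by 2.51 ± 0.42 (SE; limma adjusted p = 0.0218), or 5.68-fold on these array values. Its other probe set (1453128_at) read 4.61, 4.06 and 4.29 against 5.06, 5.28 and 5.51. There too the Tie2-negative values lay below the lower quartile (5.11), with the Tie2-positive values near it, and values this low may be background. In that probe set the change was 0.96 ± 0.19 (SE) and also passed, with an adjusted p of 0.0363 in limma over all 45037 probe sets. The array order differed, with replicate 3 highest.

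Dab2 is not a receptor but a clathrin adaptor, which links the tails of lipoprotein receptors and integrins to the coat. Its main probe set (1420498_a_at) read 6.27, 5.81 and 6.27 in the Tie2-negative arrays and 10.22, 9.13 and 7.41 in Tie2-positive replicates 1, 2 and 3. The populations did not overlap, and the change of 2.80 ± 0.66 (SE) lay just outside the threshold (limma adjusted p = 0.0526). It passed on the values as deposited (0.0422), with arrays centred on their medians (0.0409) and with genes of low mean level left out (0.0438). The other 3 probe sets of Dab2 changed by 2.51, 1.35 and 0.73 with 0 calls, and each had its highest value in replicate 1 and its lowest Tie2-positive value in replicate 3.

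Scarf1, an endothelial scavenger receptor for modified lipoprotein and dying cells, has 1 probe set (1434490_at). It read 6.18, 5.97 and 5.87 against 9.07, 7.65 and 6.81 in Tie2-positive replicates 1, 2 and 3. The groups did not overlap, but the change of 1.84 ± 0.53 (SE) missed the threshold (limma adjusted p = 0.0839). Scarb1, the receptor through which cells take cholesteryl ester from high-density lipoprotein, read 9.59, 9.93 and 10.21 against 12.17, 10.30 and 10.29 (1455820_x_at). Only replicate 1 stood clear of the Tie2-negative arrays; replicates 2 and 3 were 0.40 and 0.39 above their mean. With a change of 1.02 ± 0.52 (SE), Scarb1 missed the threshold in limma (adjusted p = 0.244). The other 2 probe sets of Scarb1 changed by 0.99 and 1.01, also with replicate 1 highest. In 1 of them, 1416050_a_at, replicate 3 (9.12) lay below the highest Tie2-negative value (9.15).

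Mmrn1 encodes multimerin, a soluble protein stored in platelet granules and endothelial cells that binds coagulation factor V. It read 7.86, 7.97 and 5.77 in Tie2-negative replicates 1, 2 and 3 and 9.71, 10.09 and 8.97 in the Tie2-positive ones (1437260_at). Among the 9 genes it had the widest spread in the Tie2-negative population, 2.20 from lowest to highest, and the highest Tie2-positive value was in replicate 2. Its limma adjusted p was 0.0677 for a change of 2.39 ± 0.63 (SE), and it passed with arrays centred on their medians (0.0458). A further probe set, 1430621_at, stayed between 2.96 and 3.13 on all arrays. Of 6 megakaryocyte and platelet genes, 1 rose (Pf4, a chemokine of platelet granules, by 5.29 ± 0.79, SE, adjusted p = 0.0170) and 0 fell. The median of that list was 6.47, 9.32 and 8.18 in Tie2-positive replicates 1, 2 and 3 against 6.25 to 6.66 in the Tie2-negative arrays. Pf4 itself read 9.11, 12.21 and 11.89 against 5.59 to 6.12. The part of platelet RNA in the Mmrn1 values was not tested.

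**Figure D2:**
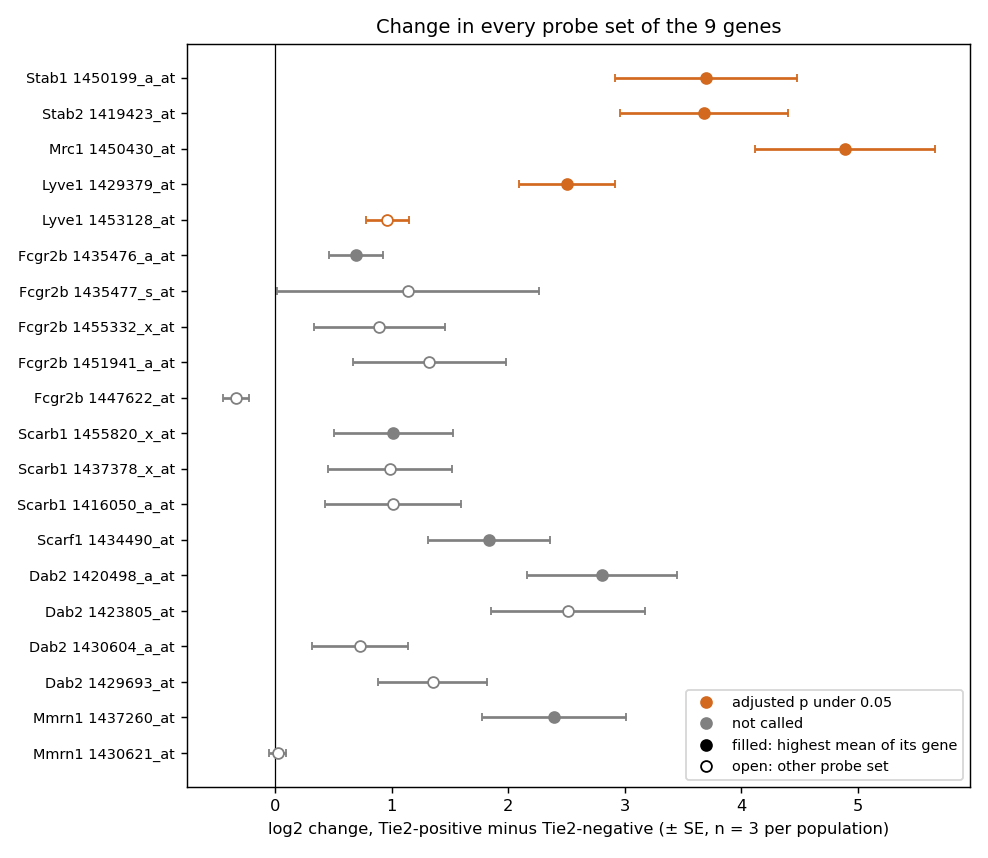
The log2 change (horizontal axis, Tie2-positive minus Tie2-negative, ± SE, 3 arrays per population) of all 20 probe sets of the 9 genes, from the limma fit over all 45037 probe sets; orange marks an adjusted p under 0.05, filled symbols the probe set used for the gene and open symbols the others. Of the 20, 5 passed, and 1 (1447622_at of Fcgr2b) lies below 0.

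Over all probe sets, 5 of the 20 were called higher and 0 lower, where limma called 3.39% of the 45037 probe sets higher. The 5 belong to Stab1, Stab2, Mrc1 and Lyve1.

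Fcgr2b was the gene whose probe sets disagreed most. It encodes the low-affinity inhibitory receptor for IgG, which acts as a brake on B cells and myeloid cells and clears immune complexes in sinusoidal endothelium. The probe set used (1435476_a_at) read 8.49, 8.84 and 8.55 in the Tie2-negative arrays and 9.36, 9.04 and 9.57 in the Tie2-positive ones. The change was 0.69 ± 0.23 (SE; limma adjusted p = 0.115), the smallest of the 9 genes, with a gap of 0.20 between the populations. Probe set 1435477_s_at read 5.85, 6.61 and 5.93 against 4.58, 7.56 and 9.66. There Tie2-positive replicate 1 was the lowest of all 6 arrays and replicate 3 the highest, 5.08 above replicate 1. Probe sets 1455332_x_at and 1451941_a_at had the same order among the Tie2-positive arrays, with replicate 3 above replicate 1 by 2.44 and 2.88. None of the 3 passed, with changes of 0.89 to 1.32 and adjusted p of 0.255 to 0.552. The fifth, 1447622_at, read 3.31 to 3.86 on all arrays, with a change of -0.34 ± 0.11 (SE; adjusted p = 0.123).

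Fc receptor genes have near-identical copies, and probe sets ending in s_at or x_at can match several transcripts. The source of the signal in 1435477_s_at and 1455332_x_at is therefore uncertain. Probe set 1451941_a_at, which had the same order, carries neither ending, and nor does the probe set used. Fcgr3, the neighbouring activating receptor of myeloid cells, read 4.85, 5.87 and 5.72 in the Tie2-negative arrays and 5.00, 8.79 and 11.00 in Tie2-positive replicates 1, 2 and 3. Its order over the Tie2-positive arrays was that of the 3 Fcgr2b probe sets, and also that of the neutrophil genes. The part of other cells or other Fc receptors in the Fcgr2b values was not tested.

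**Figure D3:**
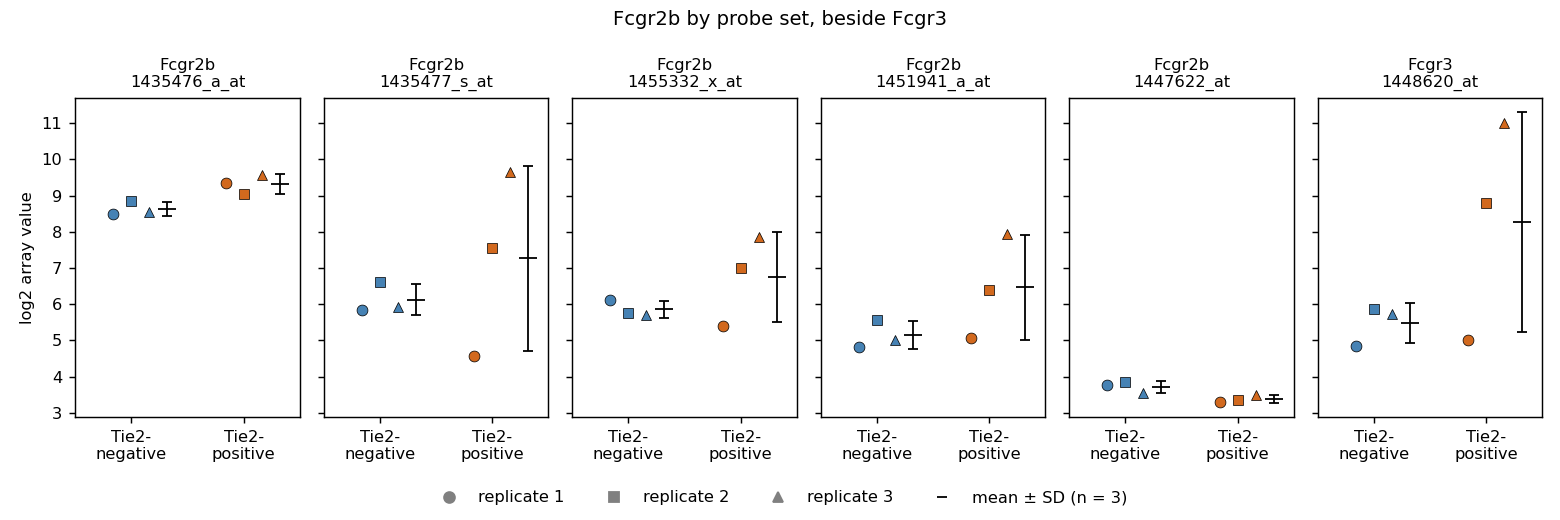
The log2 array value (vertical axis) of the 5 probe sets of Fcgr2b and of Fcgr3 in the Tie2-negative (blue) and Tie2-positive (orange) arrays, with symbols for the replicate number and bars for the mean ± SD of 3 arrays. In 3 of the Fcgr2b probe sets and in Fcgr3, the bars are wide, with replicate 1 lowest and replicate 3 highest among the Tie2-positive arrays, while the probe set used, at the left, ranges only from 9.04 to 9.57.

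Within the Tie2-positive population the receptor genes were high in replicate 1 and mostly low in replicate 3. With 1 array each there is no test, and a difference of at least 1 on the log2 scale (2-fold) is counted. Replicate 1 exceeded replicate 3 by that much in 6 of the 9 genes (Stab1, Stab2, Mrc1, Scarb1, Scarf1 and Dab2) and in 8.56% of all genes. The reverse held for 0 of the 9 in the probe sets used and for 10.2% of all genes. In the Fcgr2b probe sets 1435477_s_at, 1455332_x_at and 1451941_a_at, which were not used, replicate 3 exceeded replicate 1 by 5.08, 2.44 and 2.88. Replicate 2 exceeded replicate 3 in 5 of the 9 (Stab1, Stab2, Mrc1, Dab2 and Mmrn1) and in 1.37% of all genes. Replicate 1 exceeded replicate 2 in 5 of the 9 (Stab1, Lyve1, Scarb1, Scarf1 and Dab2) and in 7.24% of all genes. Among the 9 genes the median range over the Tie2-positive arrays was 2.25, against 0.44 over all genes. Over the Tie2-negative arrays it was 0.46 for the 9 genes and 0.41 for all genes.

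The 9 genes fell into different patterns by value. For Stab1, Stab2 and Mrc1, replicates 1 and 2 stood 4.10 to 6.20 above the Tie2-negative mean and replicate 3 only 1.78 to 2.92 above it. For Scarb1, replicate 1 stood 2.26 above and the other arrays at most 0.40 above it, with Scarf1 (3.06, 1.65 and 0.81) and Dab2 (4.10, 3.01 and 1.30) lying between these. For Lyve1, Fcgr2b and Mmrn1 replicate 3 differed from replicate 1 by under 1 in the probe sets used.

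The vascular and blood-cell genes of the same arrays moved as follows. The 8 pan-endothelial genes (such as Cdh5, the junctional cadherin; 7 of them called higher) had medians of 11.78, 10.39 and 9.20 in Tie2-positive replicates 1, 2 and 3, and each of the 8 was higher in replicate 1 than in replicate 3 by at least 1. All 7 sinusoidal and venous genes did the same, with medians of 11.08, 10.46 and 8.93. From replicate 1 to replicate 3, the medians of these lists differed by 2.58 and 2.15, and the median difference over the 9 receptor genes was 2.25. Stab1, Mrc1, Dab2 and Stab2 differed by 3.44, 3.27, 2.80 and 2.74, Lyve1 by 0.56 and Mmrn1 by 0.74. Single endothelial genes fell as far, such as Emcn, a surface sialomucin of veins and capillaries (11.10, 9.22 and 7.36), and Cldn5, a tight junction protein (12.57, 10.89 and 9.33). In the sinusoidal and venous list 6 of the 7 genes were called higher, and Ephb4 did not pass (1.46 ± 0.67, SE, limma adjusted p = 0.203). The largest rises in that list were those of Aplnr (8.57 ± 0.40, SE), the adhesion molecule Vcam1 (6.21 ± 0.69, SE) and Il6st, a signalling chain of cytokine receptors (5.10 ± 0.69, SE). Neutrophil genes ran the other way, and all 8 were higher in replicate 3 by at least 1, among them Ngp (6.45, 13.01 and 14.34) and S100a8 (6.94, 12.63 and 13.69). Several erythroid and early B-cell genes were high in the Tie2-negative arrays, but Hba-a1 (3.97 to 4.83 there) and Pax5 (5.62 to 6.27) were not. Of 4 erythroid genes 2 fell, Epb42 (-5.99 ± 0.57, SE) and Alas2 (-4.95 ± 1.13, SE). The list's median was 11.71, 9.76 and 9.14 in the Tie2-negative arrays against 4.86 to 5.59. Klf1 did not pass (-3.62 ± 0.94, SE) and read 6.34, 10.42 and 9.04 in Tie2-positive replicates 1, 2 and 3. Of 6 early B-cell genes 3 fell, Rag1 (-5.81 ± 0.61, SE), Vpreb1 (-4.95 ± 0.79, SE) and Cd79a (-2.45 ± 0.38, SE), with a median of 9.18, 9.87 and 7.63 against 5.52 to 5.87. Both counts became 0 without Tie2-negative replicate 1 or 2 and with the replicate block, and without Tie2-negative replicate 3 or Tie2-positive replicate 3 the erythroid count was 1. The mesenchymal collagen genes Col1a1 (-0.18 ± 0.42, SE) and Col1a2 (0.85 ± 0.37, SE) did not pass. The part of cell composition in these differences was not tested.

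Macrophages also make Mrc1, Stab1, Lyve1, Dab2 and Fcgr2b. Of 13 macrophage marker genes, 0 rose and 0 fell in limma, with 2 at an unadjusted p under 0.05. The list's median in the Tie2-negative arrays was 5.25 to 5.42, and in Tie2-positive replicates 1, 2 and 3 it was 5.34, 5.26 and 6.03. Replicate 3 exceeded replicate 1 by at least 1 in 3 of the 13 genes (10.2% of all genes), and the reverse held for 0 (8.56%). The complement genes C1qa, C1qb and C1qc read 4.55 to 6.16 in the Tie2-positive arrays, and the scavenger receptor Cd163 read 3.94 to 4.18. There Cd163 and C1qc lay below the lower quartile of all gene values (5.11), and values this low may be background. Cd68 read 4.54, 4.73 and 6.49 in Tie2-positive replicates 1, 2 and 3. Csf1r, the receptor of a macrophage growth factor, read 6.88, 7.33 and 9.61, and Adgre1, a macrophage surface receptor, 7.04, 6.31 and 8.19. Mertk, a receptor for dying cells, was higher in every Tie2-positive array, with 6.66, 5.97 and 6.18 against 4.88 to 5.63, and did not pass (0.99 ± 0.26, SE; adjusted p = 0.0684). The part of macrophage RNA in the values of the receptor genes was not tested. Lymphatic markers gave 0 limma calls among 3 genes, with 1 at an unadjusted p under 0.05. Prox1, the transcription factor of lymphatic identity, read 4.22 to 4.68 on all 6 arrays, below the lower quartile of all gene values (5.11). It did not pass (0.01 ± 0.15, SE, limma adjusted p = 0.963), and values this low may be background, so they cannot show whether Prox1 changed. The part of lymphatic RNA in the Lyve1 values was not tested. Reln (-2.01 ± 0.51, SE; adjusted p = 0.0611) and Pdpn (1.04 ± 0.67, SE; adjusted p = 0.332) did not pass.

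**Figure D4:**
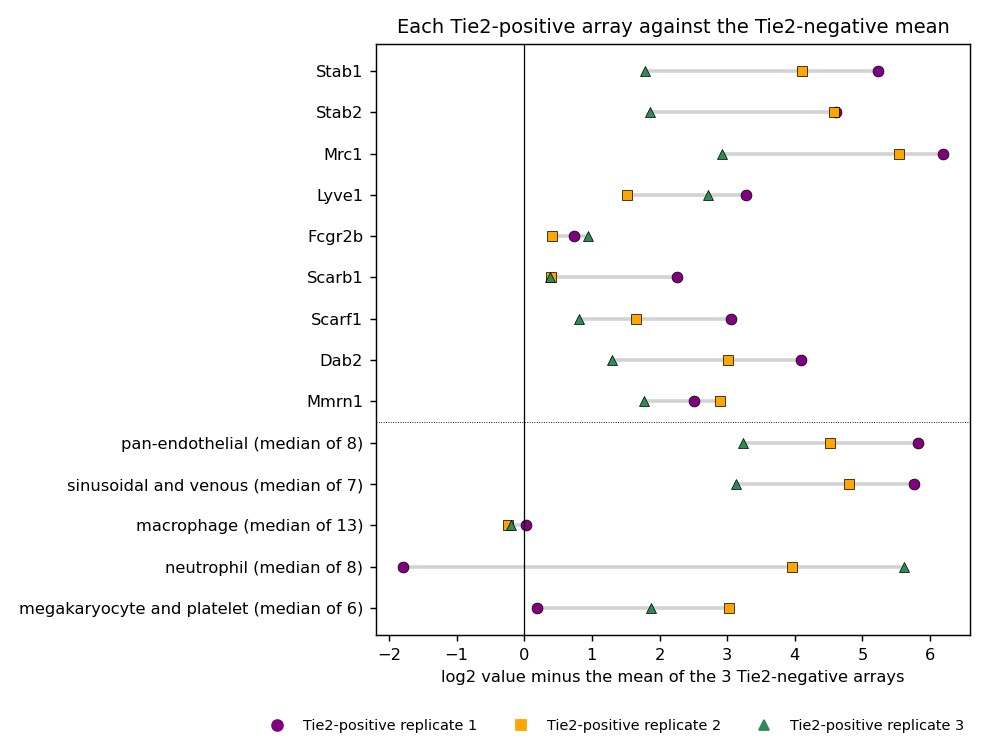
For each of the 9 genes and for 5 marker lists, the log2 value of each Tie2-positive array minus the mean of the 3 Tie2-negative arrays (horizontal axis), taken gene by gene and, for a list, as the median of those differences, which need not equal the difference of the list's medians; colours and symbols mark the replicate, and grey lines join the lowest and the highest. Stab1, Stab2, Mrc1 and Dab2 have replicate 3 lowest, as do the pan-endothelial and sinusoidal lists, while the neutrophil list has it highest at 5.61. The median of the macrophage list stays between -0.23 and 0.03. Of its 13 genes, 3 were higher in replicate 3 than in replicate 1 by at least 1.

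The genes with the most similar array pattern were found by the root mean square difference from each member over the 6 arrays, each gene centred on its own mean; 6 arrays in 2 populations make this a coarse measure. For Stab2 they were Flt4, a vascular endothelial growth factor receptor of sinusoidal and lymphatic endothelium (0.22 on the log2 scale), and the adhesion receptor gene Adgrg6 (0.23). For Mrc1 they were the matrix gene Npnt (0.16) and Kdr, the main endothelial growth factor receptor (0.33). For Stab1 they were Rnase4 (0.24) and the nuclear receptor gene Pparg (0.27), and for Dab2 Galnt18 (0.10) and Pcdhb9 (0.21). Lyve1 was closest to the transcription factor gene Klf6 (0.11) and to Tmem178 (0.16). Scarf1 was closest to Dysf (0.08) and Bst2 (0.11), Scarb1 to Trp53inp2 (0.08) and Clstn1 (0.14), and Fcgr2b to Wipf1 (0.07) and Rnpep (0.07). Mmrn1 had no gene as close: Selenop lay at 0.45 and Tmsb4x, a thymosin, at 0.50. Between members, the closest pair was Stab1 and Stab2 (0.45), followed by Stab1 and Dab2 (0.53).

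Around the 9 genes, 181 genes of 11 lists of uptake and endocytosis were measured, of which 21 rose and 5 fell in limma (14.4% called, against 7.39% of all genes). The lists were written with earlier results of these data known. Their 26 calls became 0 without Tie2-negative replicate 1 or 2, 9 without Tie2-negative replicate 3, 11 without Tie2-positive replicate 2 and 45 without Tie2-positive replicate 1. The count was 0 also with the replicate block. Over all genes, the 1345 calls of the main fit became 0 without Tie2-negative replicate 1 or 2 and with the block. They became 378 without Tie2-negative replicate 3, 504 without Tie2-positive replicate 2 and 2148 without Tie2-positive replicate 1. When the probe sets of each gene were averaged, 4 of the 26 called list genes did not pass (Hip1, Eps15, Ehd2 and Abca1), and 11 changes were smaller by over 1.5 times, such as that of Vcan (0.65). Clec1b and Epn1 did not pass on the values as deposited, nor Epn1 and Rabgef1 with arrays centred on their medians, nor Clec1b without the mean trend, and the filter on mean level removed Axl, Cd302 and Clec1b.

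Of 24 other scavenger and uptake receptors, 1 rose and 0 fell, where 7.39% of all genes were called, with a median log2 change of 0.29. It was Axl, a receptor kinase that helps in the uptake of dying cells (5.12, 3.98 and 4.78 against 6.52, 6.46 and 6.31; a change of 1.80 ± 0.29, SE; adjusted p = 0.0201). Of 12 genes of the mannose receptor family and other C-type lectins, 3 rose and 0 fell. They were the endothelial lectin Clec14a (4.75 ± 0.79, SE), the endocytic receptor Cd302 (3.30 ± 0.43, SE) and the platelet receptor Clec1b (2.18 ± 0.49, SE). Mrc2 and Pla2r1, the closest relatives of Mrc1, changed by 0.18 and -0.23 without a call. Among 12 genes of Fc receptors and their signalling, Fcgrt rose and Fcrla fell. Fcgrt, the neonatal receptor that recycles IgG and albumin, read 5.98, 6.71 and 6.09 against 11.94, 10.88 and 8.96 (4.33 ± 0.72, SE; limma adjusted p = 0.0213). Fcrla, a B-cell protein, changed by -3.96 ± 0.54 (SE; adjusted p = 0.0143). Fcgrt thus had replicate 1 highest and replicate 3 lowest, unlike Fcgr3.

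The general machinery of endocytosis showed calls in both directions. Of 29 genes of the clathrin coat and its adaptors, 1 rose and 3 fell, with a median log2 change of -0.27. Hip1, a clathrin-binding protein, rose by 3.69 ± 0.67 (SE; limma adjusted p = 0.0273). The pit-forming gene Fcho1 (-1.41 ± 0.27, SE) and the adaptors Eps15 (-1.35 ± 0.18, SE) and Epn1 (-0.98, named after its value was seen) fell. Among 13 cargo adaptors and stabilin partners, 2 rose and 0 fell. These were Gulp1, an engulfment adaptor that binds the tail of stabilins (2.31 ± 0.35, SE; adjusted p = 0.0176), and Tmsb4x, a thymosin that binds actin (2.21 ± 0.33, SE; adjusted p = 0.0176). Of 25 genes of the early and recycling endosome, the membrane-shaping gene Ehd2 rose (3.41 ± 0.73, SE) and the Rab5 activator Rabgef1 fell (-1.13 ± 0.22, SE). Of 18 lysosome genes, 4 rose and 0 fell, led by the proteases Ctsh (3.34 ± 0.41, SE) and Ctsl (2.23 ± 0.47, SE) and the hexosaminidase chain Hexa (1.48 ± 0.30, SE). The median log2 change of the lysosome list was 0.83.

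The ligands and partners of the receptors were mixed. Among 14 genes of hyaluronan synthesis, binding and breakdown, 2 rose and 0 fell. They were Vcan, a hyaluronan-binding proteoglycan (3.23 ± 0.62, SE; limma adjusted p = 0.0319), and Cemip2, a cell surface hyaluronidase (2.02 ± 0.34, SE; adjusted p = 0.0226). The synthases Has1, Has2 and Has3 changed by -0.42, -0.30 and 0.20, and the receptor Cd44 by -0.05, all without a call. Among 14 genes of high-density lipoprotein and cholesterol transport, 4 rose and 0 fell. Apoe, an apolipoprotein, read 6.39, 7.46 and 7.72 against 10.65, 12.08 and 10.98 and rose by 4.05 ± 0.49 (SE; adjusted p = 0.0116). Gpihbp1, which holds lipoprotein lipase on capillary walls (3.95 ± 0.83, SE), and the cholesterol exporter Abca1 (3.08 ± 0.68, SE) also rose. Pdzk1, the adaptor of Scarb1 in liver, changed by -0.27 ± 0.21 (SE; adjusted p = 0.411). Of 12 genes of the LDL receptor family and its cofactors, 0 passed in limma, with 4 at an unadjusted p under 0.05. The 2 with the highest mean were Lrpap1, a chaperone of the family (0.43 ± 0.20, SE; adjusted p = 0.213), and Lrp10 (0.38 ± 0.34, SE; adjusted p = 0.477). Of 8 genes that are relatives of Mmrn1 or genes of endothelial storage granules, Vwf, the von Willebrand factor (4.82 ± 0.56, SE; adjusted p = 0.0105), and Emilin1 (2.82 ± 0.27, SE; adjusted p = 0.0103) rose and 0 fell. Mmrn2, the endothelial relative of Mmrn1, read 6.81, 7.31 and 7.00 against 10.69, 8.99 and 8.47, with a change of 2.35 ± 0.55 (SE) that did not pass (adjusted p = 0.0530).

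**Figure D5:**
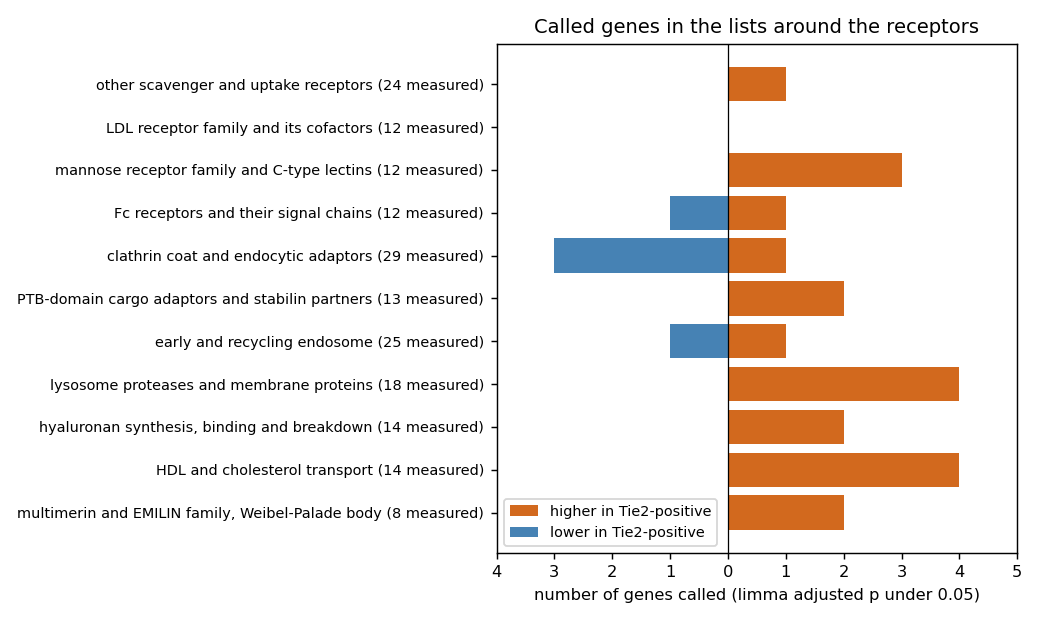
The number of genes called by limma (adjusted p under 0.05; horizontal axis) in 11 lists of uptake and endocytosis genes, to the right those higher and to the left those lower in the Tie2-positive population; the number measured stands beside each list. The lysosome list and the cholesterol transport list have 4 higher genes each, and the clathrin list has 3 lower and 1 higher.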

How the data were processed

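Gene expression was measured on 6 arrays, 3 per population. The authors' deposited values, 1 for each probe set on each array, run from 2.56 to 14.78 and were read as log2 from that range. Per the labels' protocols the arrays were scanned with GCOS 1.1.1 software; the summarisation method is not given in the sources used for this comparison. Of 45101 probe sets, 64 controls were left out of tests, 34945 carried 1 gene symbol in the platform annotation, 932 several and 9160 none. As deposited, the arrays' 75th percentiles ran from 7.26 to 7.33 (Tie2-negative) and from 7.45 to 7.53 (Tie2-positive); quantile normalization removed this difference. Populations were compared in R 4.3.3 with limma 3.58.1 (lmFit, eBayes with mean trend; statmod 1.5.0 for robust estimation), two-sided, over 18193 genes with Benjamini-Hochberg adjustment at 0.05. The script was tested on simulated data. Arrays have no read depth, and their number limits the precision.

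The members and lists were chosen with earlier results of these data known. Named were all 9 members, Tek, per list the 3 called genes with the largest change or, without a call, the 2 with the highest mean, and for each member the 2 genes of nearest pattern. Other genes named for their role (such as Fcgr3, Prox1, Has1 and Mmrn2) were chosen after their values were seen. Alternatives were the replicate block, deposited or median-centred values, dropping genes under the 40th percentile of mean level, means over probe sets, no x_at or s_at probe sets, all probe sets tested, no trend, robust estimation, array weights, and arrays left out.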

Additional observations from a re-analysis of the deposited data

How the results depend on the processing

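The 4 calls among the 9 genes, and the 26 among the list genes, were the most fragile results. Under the replicate block, 0 of the 9 genes and 0 list genes passed in limma (smallest adjusted p over all genes 0.0521). With array weights the counts were 7 and 69, and with replicate 1 as the only Tie2-positive array, its spread taken from the Tie2-negative arrays, they were 7 and 60. Leaving out single arrays gave between 0 and 6 of the 9 genes, between 0 and 45 list genes and between 0 and 2148 of all genes. Deviations from the group means correlated across genes at 0.14, 0.01 and 0.19 for equal replicate numbers 1, 2 and 3. Between number 1 of either population and number 3 of the other the correlation was -0.16. With so few arrays these values cannot decide whether the replicate numbers pair the samples. Under the alternatives that kept all 6 arrays, apart from the block and the array weights, the count of called members ran from 4 to 6. No change among the 9 genes turned its direction in any of the 17 alternatives, but their populations do not overlap, so leaving out arrays could not turn them. The filter on mean level removed Lyve1. The 6 members with replicate 1 over replicate 3 by at least 1 stayed 6 with deposited values, with median-centred arrays and with means over probe sets.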
